A study of Mus musculus with 6 samples.

Results

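The 36 genes described here are those of the unfolded protein response and the integrated stress response, taken by symbol from a fixed list and found in full among the 18341 genes of the deposited table. They fall into 15 genes of the integrated stress response and its transcription factor ATF4, 4 sensors and XBP1, and 17 chaperones, folding enzymes and degradation genes of the endoplasmic reticulum (ER). Gene expression had been measured by RNA sequencing in monocytes sorted from subcutaneous B16.F10 melanoma in C57BL/6 mice, 13 days after the tumour cells were injected. The line B16.F10 makes melanin. In 3 libraries the injected cells overexpressed BAFF, the B cell activating factor, and in 3 libraries they were control cells, so BAFF status of the tumour cells is the only labelled difference and all 6 libraries share the host strain, the parent line, the sort and the day. The labels do not give the age or sex of the mice, the construct, whether the cells were clones or whether each library is a different mouse. The p-values therefore cover only the spread between these samples, which may be technical.

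Cells answer an overload of unfolded protein in the ER through membrane sensors, PERK (Eif2ak3), IRE1 (Ern1) and ATF6 (Atf6). PERK phosphorylates the initiation factor eIF2, which lowers general translation and favours translation of Atf4; other eIF2 kinases feed into the same integrated stress response, and ATF4 then acts on genes for amino acid synthesis, tRNA charging and feedback. IRE1 splices the Xbp1 transcript, and XBP1 and ATF6 act on genes for ER chaperones and for ER-associated degradation (ERAD). Neither the translation of Atf4 nor the splicing of Xbp1 can be read from gene-level values. In myeloid cells of tumours both branches are known to be engaged.

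Expression was deposited as CPM, read counts brought to a common total, and is given here after division by a size factor for each library, as scaled CPM. The factors ran from 0.67 to 1.27, and the listed genes held 39.8% to 66.1% of the total behind the CPM. By the step between low values, 1 CPM stood for 4.72 (control tumour 3) to 27.6 reads (BAFF tumour 2). The defining monocyte transcripts were abundant in every library, with Csf1r at 479 to 654 and Lyz2 at 2978 to 5238 scaled CPM. The summed level of 10 melanoma markers was 80.9 to 166 scaled CPM in BAFF tumour libraries and 498 to 644 in controls, with 9 called lower, and that of 10 markers of dividing cells was 86.8 to 95.6 against 275 to 319, with all 10 called lower. The 9 dissociation and early response genes summed to 3601 to 3852 against 2523 to 3051 scaled CPM, with 3 called higher. The 7 neutrophil genes summed to 164 to 223 against 98.2 to 153, with 2 called higher, the 7 fibroblast genes to 32.6 to 54.7 against 38.1 to 198, with 1 lower, and the 5 endothelial genes to 29.7 to 38.1 against 19.8 to 26.6, with 2 higher. The 9 T and NK cell genes summed to 15.4 to 23.1 against 12.3 to 23.9 scaled CPM. The 14 monocyte and macrophage genes summed to 11441 to 11949 against 8748 to 11191 scaled CPM. Of these 14, 4 were called higher (log2 fold changes of 1.37 for Chil3, 0.72 for Vcan, 0.64 for Cd14 and 0.51 for Ccr2). Another 2 were called lower (-1.03 for C1qa and -0.72 for C1qb), and 8 were not called. The part of these differences in the results below was not tested. Fewer cells of a type and less RNA per cell cannot be told apart in such bulk libraries.

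Of the 36 genes 35 were abundant enough to test, and 8 rose and 1 fell in BAFF tumour libraries (limma-trend, Benjamini-Hochberg adjusted p under 0.05 over 12824 genes). Atf4, its feedback targets Ppp1r15a and Sesn2, Xbp1, the ER genes Dnajb9, Manf and Hyou1 and the ERAD gene Edem1 rose, by 1.30-fold for Hyou1 up to 1.57-fold for Sesn2, and the mitochondrial one-carbon enzyme gene Shmt2 fell to 0.664 of its control level. Over all tested genes 7.18% were called higher and 9.91% lower (921 and 1271 genes; 489 and 1326 with CPM over the listed genes only). The groups did not overlap, with BAFF tumour libraries higher, for 12 of the 35 members and for 17.3% of all tested genes. With BAFF tumour libraries lower this held for 1 member and for 17.8%. These shares depended on the level of the genes, as given below. Chac1, at about 1 to 12 reads in a library as estimated from the step between low values, was too scarce to test. On the deposited scale with no size factors, where 5.31% of all tested genes were called, 0 of the 35 members passed in limma and 7 had an unadjusted p under 0.05. Without control tumours 2 and 3 together, the libraries richest in a ribosomal RNA transcript, 2 members passed (Edem1 and Sesn2), with the single control library left assumed to vary like the BAFF libraries.

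**Figure D1:**
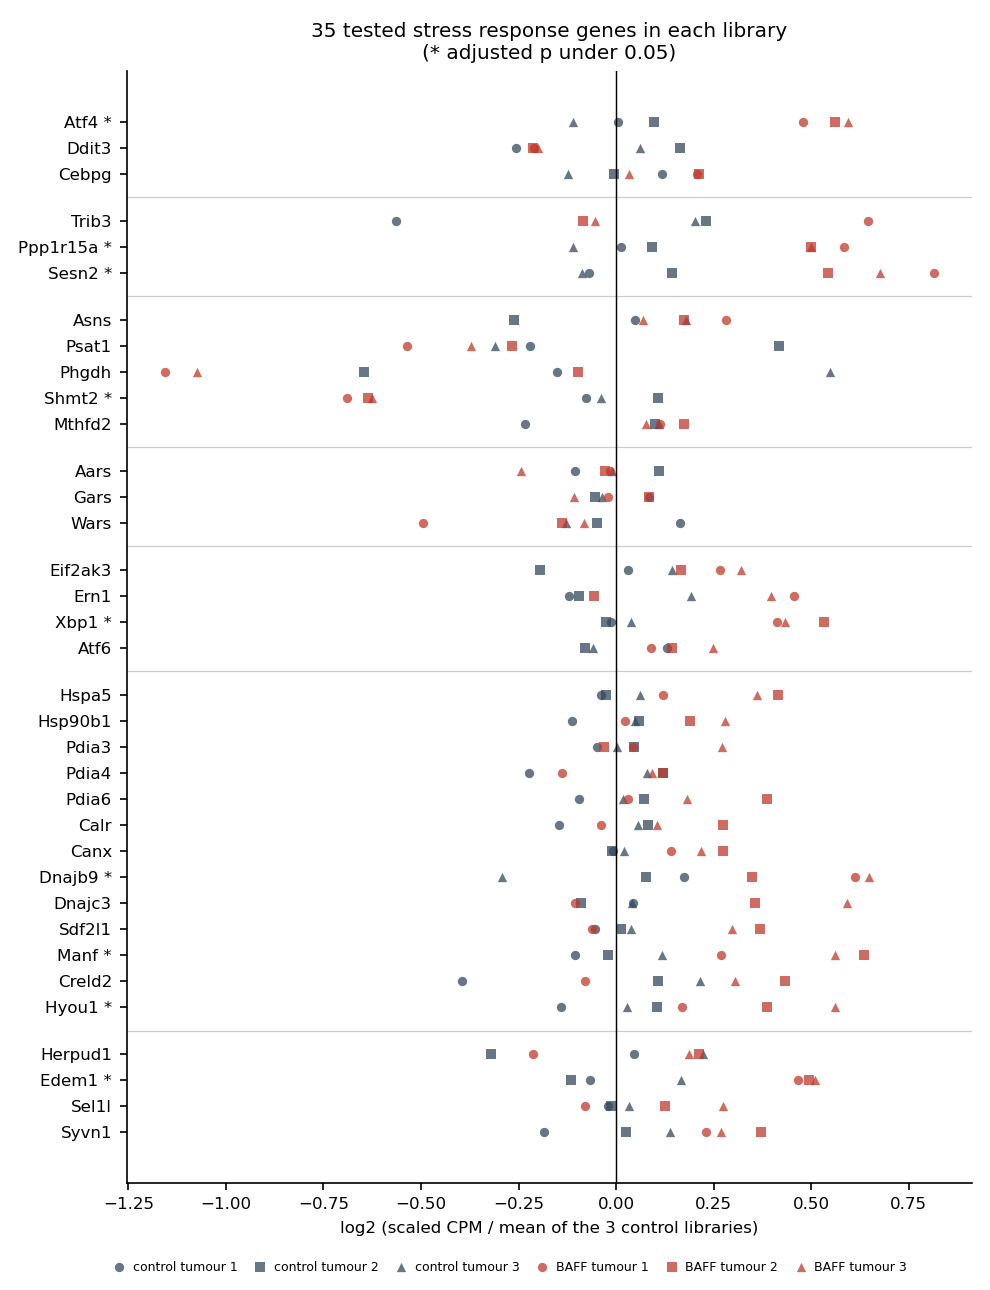
Each tested member in each library, as log2 of scaled CPM over the mean of the 3 control libraries, with BAFF tumour libraries in red, control libraries in grey and marker shape for the library number. Red points of Atf4, Ppp1r15a, Sesn2, Xbp1 and Edem1 lie clear of the grey ones, while the tRNA synthetase genes and most enzymes of amino acid synthesis overlap.

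Fold change rose with level in these data. Genes with a mean of 100 scaled CPM or more had a median log2 fold change of 0.20, with 81.0% above 0 and 25.3% called higher, against a median of 0.08 for genes of 20 to 100 and -0.07 for genes under 20 scaled CPM. The 14 members in the upper class had a median of 0.21, all 14 were above 0 and 5 were called higher. The groups did not overlap, with BAFF tumour libraries higher, for 7 of these 14 and for 451 of all 991 genes of the class. In the classes of 20 to 100 and under 20 scaled CPM this held for 990 of 3892 and 783 of 7941 genes. When cyclic loess was added to the size factors, which evens out differences that depend on level and was chosen after seeing the data, Atf4, Ppp1r15a, Sesn2 and Dnajb9 passed as higher (log2 fold changes of 0.35, 0.34, 0.63 and 0.46) and Shmt2 as lower (-0.54). Xbp1, Manf, Edem1 and Hyou1 then missed the threshold, with log2 fold changes of 0.26, 0.33, 0.28 and 0.17 (limma adjusted p = 0.0759, 0.0753, 0.0854 and 0.381).

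Atf4 encodes the transcription factor at the centre of the integrated stress response. It stood at 197, 208 and 213 scaled CPM in BAFF tumours 1, 2 and 3 and at 142, 151 and 131 in control tumours 1, 2 and 3. All BAFF tumour libraries were above all controls, with means of 206 ± 8.6 and 141 ± 10.2 (SD, n = 3). The difference was 0.54 ± 0.10 (log2, SE) at an adjusted p of 0.00242 in limma. The call held in each of the 6 fits that left out 1 library.

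Ppp1r15a encodes GADD34, the phosphatase subunit that reverses eIF2 phosphorylation and so closes the feedback loop. Its values were 174, 164 and 164 scaled CPM in BAFF tumours 1, 2 and 3 and 117.2, 123.8 and 107.7 in the controls, again without overlap (log2 fold change 0.53 ± 0.09; limma adjusted p = 0.00272). Sesn2, the stress-induced sestrin 2 that restrains the growth kinase mTORC1, stood at 28.9, 23.9 and 26.3 scaled CPM against 15.7, 18.2 and 15.5. The lowest BAFF tumour library exceeded the highest control, and the log2 fold change was 0.65 ± 0.12 (adjusted p = 0.00352). Both calls held without any single library.

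The other tested ISR regulators did not pass. Ddit3, the gene of the pro-apoptotic factor CHOP, stood at 15.7, 15.7 and 15.8 scaled CPM in BAFF tumours 1, 2 and 3 and at 15.2, 20.3 and 19.0 in controls. Its groups overlapped, and the log2 fold change of -0.19 had a 95% interval from -0.47 to 0.10 (limma adjusted p = 0.374), turning to 0.05 on the deposited scale and to 0.03 without control tumours 2 and 3 together. Cebpg, a dimer partner of ATF4, had a log2 fold change of 0.15 ± 0.11 and Trib3, a pseudokinase induced by ATF4 and CHOP, 0.17 ± 0.23, with BAFF tumour 1 at 6.01 and the other 5 libraries at 2.60 to 4.50 scaled CPM.

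**Figure D2:**
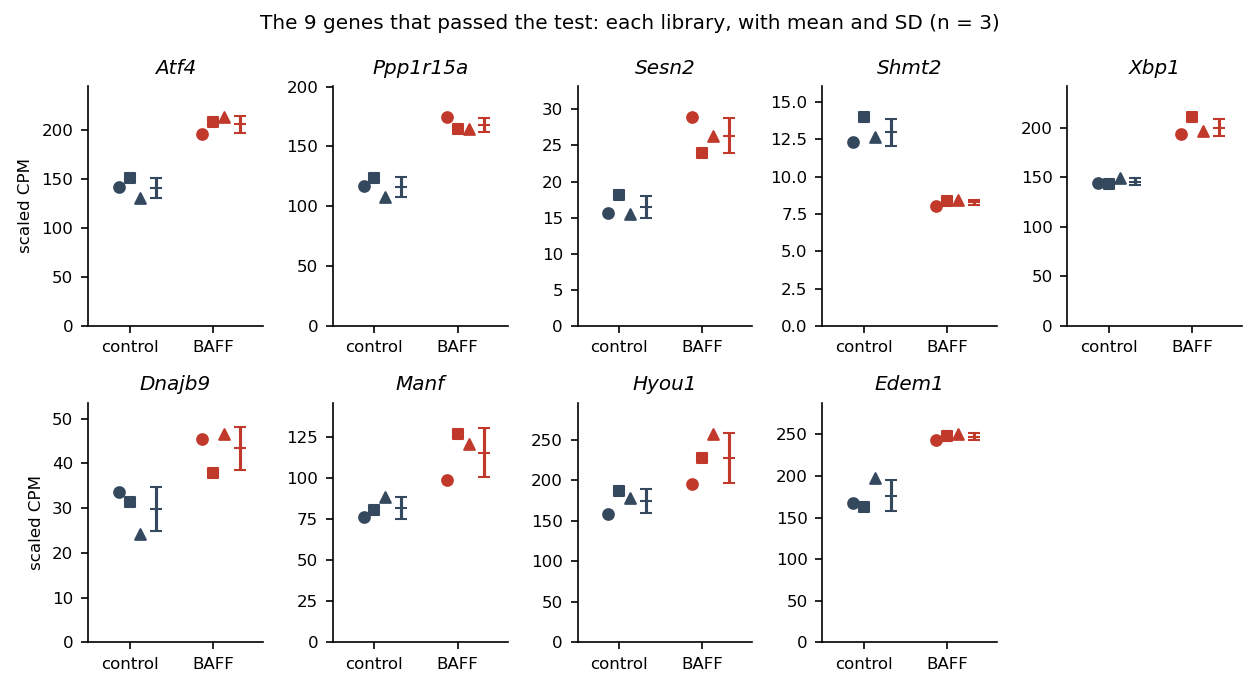
Scaled CPM of the 9 genes that passed the test, with a point for each library, the mean and the SD (n = 3), and every axis starting at 0. In each panel the BAFF tumour libraries (red) and controls (grey) do not overlap; Shmt2 alone of the 9 is lower in BAFF tumours.

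Genes of the biosynthetic arm of ATF4 were not called higher. Of the 5 enzyme genes of amino acid and one-carbon metabolism 0 rose and 1 fell (limma; also 0 and 1 at an unadjusted p under 0.05), with a median log2 fold change of -0.34, and of the 3 tRNA synthetase genes 0 passed in either direction, also unadjusted, with a median of -0.09. Asns, Phgdh, Shmt2 and Mthfd2 are in the class under 20 scaled CPM, with 224 of 7941 genes called higher and 1044 lower. Psat1 and the tRNA synthetase genes are in that of 20 to 100, with 446 of 3892 higher and 199 lower. At such shares these genes are too few for 0 calls higher to set them apart. Shmt2, which makes one-carbon units from serine in mitochondria, stood at 8.05, 8.35 and 8.41 scaled CPM in BAFF tumours 1, 2 and 3. In control tumours 1, 2 and 3 it stood at 12.3, 13.98 and 12.6. The groups did not overlap and the fall was -0.59 ± 0.13 on the log2 scale (limma adjusted p = 0.00878), also called in each fit that left out 1 library. Melanoma and dividing cell markers were lower in the same libraries, and their part in this fall was not tested.

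The serine synthesis genes Psat1 (log2 -0.34, 95% interval -0.71 to 0.02) and Phgdh (-0.34, -0.87 to 0.19) did not pass. Phgdh rested on an estimated 5 to 40 reads in a library. Asns, asparagine synthetase and a textbook ATF4 target, stood at 3.51 to 4.07 against 2.80 to 3.79 scaled CPM, with overlapping groups and a log2 fold change of 0.14 (95% interval -0.24 to 0.52). Mthfd2, the next one-carbon enzyme after Shmt2, gave 0.12 (-0.16 to 0.40). The tRNA synthetase genes were not called, with Gars at -0.01 (-0.24 to 0.21), Aars at -0.09 (-0.32 to 0.14) and Wars, which interferon gamma also induces, at -0.23 (-0.51 to 0.05). With size factors the upper ends of all these intervals lie below the log2 fold change fitted for Atf4. Those of Asns and Mthfd2 lie within the 95% interval of Atf4, which ran from 0.33 to 0.75. The 1 added to scaled CPM before taking logs understates changes of low genes such as Asns more than that of Atf4. The upper ends are therefore not compared on equal terms. With cyclic loess Atf4 gave 0.35 ± 0.10, Asns 0.29 ± 0.17 and Mthfd2 0.12 ± 0.13. The difference between genes was not tested.

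Over the 14 tested ISR and ATF4 target genes, 7 had a log2 fold change above 0 and 7 below, with a median of 0.05, against 51.2% above 0 over all tested genes. The 3 called higher were Atf4 and 2 feedback genes, and the 1 called lower was an enzyme of one-carbon metabolism. Among all tested genes 7.18% were called higher and 9.91% lower, shares that depend on level. No test of 1 role against another was made.

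Of the 3 sensor genes and Xbp1, Xbp1 rose. Xbp1, the transcription factor gene whose RNA is spliced by IRE1, stood at 194, 211 and 197 scaled CPM in BAFF tumours 1, 2 and 3 and at 144, 143 and 149 in controls. The groups did not overlap (log2 fold change 0.46 ± 0.09; limma adjusted p = 0.00472), and the call held in every fit that left out 1 library. Plasma cells also express Xbp1. The 12 listed B and plasma cell genes summed to 138 to 174 scaled CPM in BAFF tumour libraries against 121 to 157 in controls. Of the 7 tested, Sdc1 and Prdm1 were called higher, and the antibody genes Jchain (0.572 to 3.39 against 3.57 to 7.19), Igkc (2.86 to 6.11 against 7.77 to 14.7) and Igha were called lower. Their part in the rise of Xbp1 was not tested. Mzb1 and Cd79a were each at 0 in 1 library.

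The 3 sensor genes had fold changes above 0 and did not pass. Ern1 gave a log2 fold change of 0.27 ± 0.14, Eif2ak3 0.24 ± 0.12 and Atf6 0.16 ± 0.10 (limma adjusted p = 0.231, 0.204 and 0.301). Eif2ak3 was 20.5 to 22.8 in BAFF tumour libraries and 15.997 to 20.2 scaled CPM in controls, without overlap, whereas Ern1 and Atf6 overlapped.

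Of the 17 ER chaperone and ERAD genes 4 rose and 0 fell (limma; 6 and 0 at an unadjusted p under 0.05). All 17 had a log2 fold change above 0 with size factors and on the deposited scale, 16 of 17 with upper-quartile factors or CPM over the listed genes only, and 9 of 17 with cyclic loess. Their median was 0.21, and 8.46e-05 with cyclic loess. The 10 with a mean of 100 scaled CPM or more had a median of 0.18, against 0.20 for all genes of that class. Of these 10, 2 were called higher, against 25.3% of all genes of the class. The 7 of 20 to 100 scaled CPM had a median of 0.28, against 0.08, and 2 were called higher, against 11.5%. The 4 that rose encode a cochaperone, a secreted factor, a nucleotide exchange factor and a lectin of ERAD.

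Dnajb9 encodes ERdj4, a cochaperone of BiP that restrains IRE1. It stood at 45.5, 37.9 and 46.6 scaled CPM in BAFF tumours 1, 2 and 3 against 33.6, 31.4 and 24.3 in controls. The groups did not overlap (log2 fold change 0.53 ± 0.14; limma adjusted p = 0.0185), but leaving out BAFF tumour 1, BAFF tumour 3 or control tumour 3 ended the call (adjusted p at most 0.0651). Manf, a small ER protein that is secreted under ER stress, stood at 98.6, 127 and 121 against 76.1, 80.6 and 88.8 scaled CPM. BAFF tumour 1 was the lowest of its group and still above every control (0.49 ± 0.11; adjusted p = 0.0125, and 0.0614 without BAFF tumour 2).

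Edem1 encodes a lectin that hands misfolded glycoproteins to ERAD. Its values were 243, 248 and 251 scaled CPM in BAFF tumours 1, 2 and 3 and 168, 163 and 198 in controls. The BAFF tumour libraries were tightly grouped above the controls (log2 fold change 0.49 ± 0.10; limma adjusted p = 0.00603), and the call held without any single library. Hyou1, the large ER chaperone ORP150, was 196, 228 and 258 against 158, 188 and 178 scaled CPM. It passed narrowly (0.37 ± 0.12; adjusted p = 0.0478) and was called in 1 of the 6 fits that left out 1 library, with an adjusted p of at most 0.151.

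The most abundant chaperones did not pass. Hspa5, which encodes BiP, the chaperone that holds the sensors inactive, stood at 1366, 1674 and 1613 scaled CPM in BAFF tumours 1, 2 and 3 and at 1221.5, 1234 and 1311 in controls. The groups did not overlap, yet the log2 fold change of 0.30 ± 0.13 did not pass (limma adjusted p = 0.131) and was 8.46e-05 with cyclic loess. Hsp90b1 (GRP94) gave 0.17 ± 0.11, the lectin chaperones Canx and Calr 0.21 ± 0.10 and 0.12 ± 0.12, and the disulfide isomerases Pdia6, Pdia3 and Pdia4 0.20 ± 0.11, 0.10 ± 0.11 and 0.03 ± 0.12. For Pdia4 the 95% interval ran from -0.23 to 0.29. Dnajc3, the BiP cochaperone that inhibits PERK, gave 0.28 ± 0.15, Creld2, a secreted disulfide isomerase, 0.24 ± 0.17 and Sdf2l1, a partner of BiP and ERdj proteins, 0.20 ± 0.12.

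Among the other ERAD genes, Syvn1, the ubiquitin ligase HRD1, was 25.6 to 28.2 in BAFF tumour libraries and 19.2 to 24.0 scaled CPM in controls, without overlap, at 0.28 ± 0.12 (limma adjusted p = 0.124). Its adaptor Sel1l gave 0.11 ± 0.11 and Herpud1, a scaffold of the same complex, 0.08 ± 0.15, and both overlapped between groups.

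The BAFF tumour libraries were not alike in these ER genes. BAFF tumour 1 was the lowest of its group for 15 of the 17 and exceeded every control for 7, whereas BAFF tumours 2 and 3 exceeded every control for 14 and 15. Over all tested genes 32.5%, 32.8% and 32.4% exceeded every control in BAFF tumours 1, 2 and 3. The median of the 17 genes, each centred on its mean over the 6 libraries, was -0.06 on the log2 scale in BAFF tumour 1, 0.21 and 0.20 in BAFF tumours 2 and 3, and -0.19, -0.09 and -0.06 in control tumours 1, 2 and 3. With cyclic loess the same medians were -0.19 in BAFF tumour 1, 0.09 and 0.12 in BAFF tumours 2 and 3, and -0.05 to 0.02 in controls. Of the 14 ISR genes BAFF tumour 1 exceeded every control for 7, and BAFF tumours 2 and 3 for 5 and 3. Atf4, Ppp1r15a and Sesn2 were above every control in all 3 BAFF tumour libraries.

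**Figure D3:**
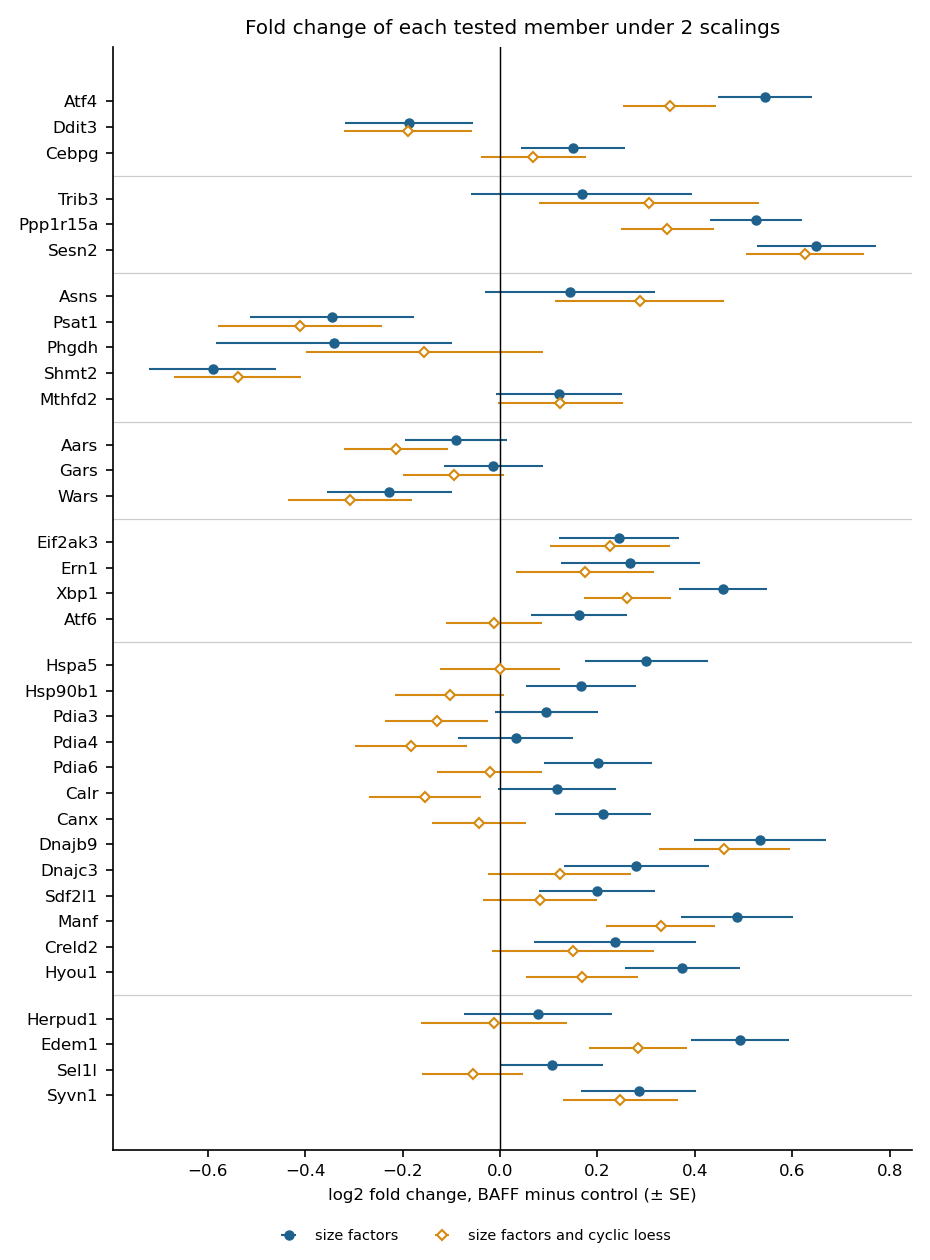
Log2 fold change with SE of each tested member after size factors (blue circles) and after size factors with cyclic loess (open orange diamonds). Cyclic loess brings the abundant chaperones from Hspa5 to Canx to about 0 or below, while Sesn2, Shmt2 and Dnajb9 move little.

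Promoters of the members were searched for the elements known from ATF4 targets and from ER stress targets, and those with a match in well-known targets are shown. RefSeq promoters (GRCm38.p6, 250 bases before to 50 after the start) were found for 32 of the 36 genes, and searched on both strands. The C/EBP-ATF response element through which ATF4 acts was searched as TGATG and AA with 1 base between them. TGACGTG was searched as the core of an XBP1 and ATF6 site. The ER stress response element (ERSE) was searched as CCAAT and CCACG with 9 bases between them. ERSE-II was searched as ATTGG and CCACG with 1 base between them. No match of 1 motif overlaps that of another in the promoters printed. In the following stretches, written 5′ to 3′ on the strand of the gene and lying before its start, capitals mark the matches, and TTGCATCA is a C/EBP-ATF element on the opposite strand.

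Asns (chr6:7693210-7693279, minus strand): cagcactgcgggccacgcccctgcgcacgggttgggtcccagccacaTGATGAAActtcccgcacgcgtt
Chac1 (chr2:119351012-119351092, plus strand): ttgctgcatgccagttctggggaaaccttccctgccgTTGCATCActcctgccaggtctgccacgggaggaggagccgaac
Herpud1 (chr8:94386309-94386428, plus strand): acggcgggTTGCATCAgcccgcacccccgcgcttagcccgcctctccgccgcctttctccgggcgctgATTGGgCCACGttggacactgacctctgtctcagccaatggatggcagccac
Hspa5 (chr2:34771920-34772089, plus strand): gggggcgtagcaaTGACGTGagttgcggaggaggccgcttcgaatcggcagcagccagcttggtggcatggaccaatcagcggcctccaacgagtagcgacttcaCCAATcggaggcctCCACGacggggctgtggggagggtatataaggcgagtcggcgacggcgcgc

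The C/EBP-ATF element was found in 5 of the 14 ISR and ATF4 target promoters (Asns, Chac1, Trib3, Aars and Gars), in 1 of the 15 ER chaperone and ERAD promoters (Herpud1) and in 3.97% of all 32851 promoters. ERSE was found in 8 of the 15 ER promoters, in 0 of the 14 ISR promoters and in 0.119% of all promoters. ERSE-II was found in Herpud1 and in 0.0365% of all promoters, and TGACGTG in Hspa5 and in 2.01%. The 9 ERSE matches of the 8 genes, chosen for printing after they were found, read as follows on the strand that holds CCAAT first, with the fixed letters in capitals.

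Hspa5 (chr2:34772025-34772043, plus strand): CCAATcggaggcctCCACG
Hsp90b1, distal (chr10:86705638-86705656, minus strand): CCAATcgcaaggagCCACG
Hsp90b1, proximal (chr10:86705533-86705551, plus strand): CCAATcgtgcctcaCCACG
Pdia6 (chr12:17266491-17266509, plus strand): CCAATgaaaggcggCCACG
Calr (chr8:84847075-84847093, plus strand): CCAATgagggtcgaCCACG
Canx (chr11:50325800-50325818, minus strand): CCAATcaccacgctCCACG
Dnajc3 (chr14:118937827-118937845, plus strand): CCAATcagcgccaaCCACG
Creld2 (chr15:88819520-88819538, minus strand): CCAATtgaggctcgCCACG
Syvn1 (chr19:6046532-6046550, plus strand): CCAATcggcggtagCCACG

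Of the 8 genes with an ERSE 0 were called in limma, and 2 of the 8, Hspa5 and Syvn1, had an unadjusted p under 0.05. Over all tested genes 7.18% were called higher, a share that depends on level. Hspa5, Hsp90b1, Pdia6, Calr and Canx are in the class of 100 scaled CPM or more, with 25.3% called higher. Dnajc3, Creld2 and Syvn1 are in that of 20 to 100 scaled CPM, with 11.5%. At such shares 8 genes are too few for 0 calls to set them apart. All 8 had a log2 fold change above 0 with size factors and 4 of the 8 with cyclic loess, and Hspa5, Canx and Syvn1 did not overlap between groups. Of the 9 members that passed, 7 had a promoter in the table (all but Hyou1 and Manf), and 0 of these held any of the 4 motifs in this window. The shares of all promoters given above are so low that 0 of 7 does not set these genes apart from promoters in general. Among all members with a promoter, 14 of 32 held a match, and the difference between called and other members was not tested. A match is a description of the letters and not evidence of binding, and the absence of one says only that these letters are not in this window.

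**Figure D4:**
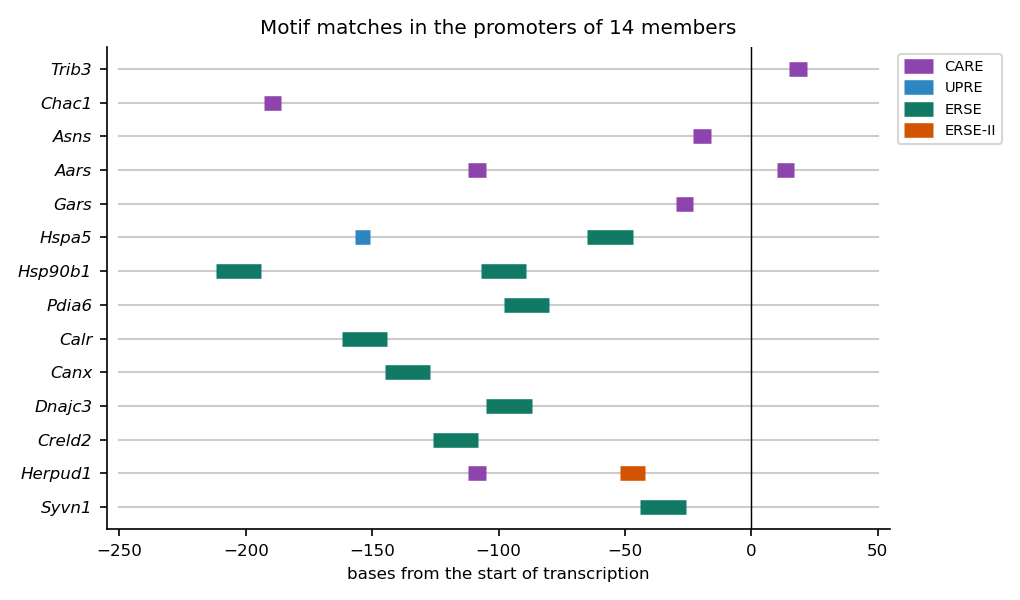
Positions of the motif matches, in bases from the start of transcription, for the 14 members with a match. The ERSE matches (green) of the chaperones and Syvn1 lie within the 250 bases before the start, and the C/EBP-ATF elements (CARE, purple) are in Asns, Chac1, Trib3, Aars, Gars and Herpud1.

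Of 130 other genes of these pathways on lists by role, 127 were in the table and 120 were tested; 9 rose, 4 fell and 107 did not pass, with a median log2 fold change of 0.09. The 9 are 7.5% of those tested, against 7.18% of all tested genes. On the deposited scale Jdp2 and Ddit4 passed as higher and 0 as lower (8 of 120 in either direction at an unadjusted p under 0.05), with cyclic loess 4 as higher and 3 as lower, and without control tumours 2 and 3 together 2 as higher and 1 as lower. Among 18 other tested ISR and ATF4 target genes 4 rose and 1 fell. Jdp2, an AP-1 repressor, was 78.8, 79.9 and 70.3 in BAFF tumours 1, 2 and 3 and 40.5, 53.0 and 40.8 scaled CPM in controls (log2 fold change 0.77 ± 0.12; limma adjusted p = 0.00119). The groups were well apart, as they were for Slc38a2, the amino acid transporter SNAT2 (0.59 ± 0.12), and for Atf3, an early stress transcription factor (0.45 ± 0.10; adjusted p = 0.00716 and 0.0083). With cyclic loess Slc38a2 gave 0.39 and Atf3 0.19, and neither passed (adjusted p = 0.0625 and 0.23). The other calls, outside the naming rule, were Ddit4, an mTORC1 inhibitor, which rose (0.83 ± 0.22; adjusted p = 0.0248; not called in 3 of 6 fits that left out 1 library), and Gdf15, a secreted stress factor, which fell (-0.66 ± 0.15; adjusted p = 0.00869). Atf3 stood at 600 to 635 against 436 to 466 scaled CPM. It is also induced by dissociation of tissue, as Ppp1r15a can be; of the 9 dissociation genes Hspa1a, Hspa1b and Dusp1 were called higher (0.79 ± 0.15, 0.83 ± 0.14 and 0.36 ± 0.11), and the part of handling in these rises was not tested.

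Among 17 other cytosolic tRNA synthetase genes 0 rose (limma; 1 at an unadjusted p under 0.05) and 1 fell, Vars, at 25.7 to 28.6 against 32.8 to 39.8 scaled CPM (log2 fold change -0.46 ± 0.11; limma adjusted p = 0.0153, lost in 4 of 6 fits that left out 1 library). Of 13 genes for eIF2, its kinases, exchange factor and phosphatase, Ppp1r15b, the constitutive partner of Ppp1r15a, was the single call (0.35 ± 0.09; adjusted p = 0.0233; ended by leaving out BAFF tumour 1 or control tumour 3). It also missed the threshold with the replicate block (limma adjusted p = 0.0513) and with CPM over the listed genes (0.124). With cyclic loess it had a log2 fold change of 0.15 and did not pass (limma adjusted p = 0.329). Among all tested genes 7.18% were called higher and 9.91% lower. Lists of 17 and 13 genes are too short for 0 or 1 call to set them apart.

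Other ER folding genes gave 3 higher and 1 lower of 19 tested. Both ER oxidases rose: Ero1lb was 46.2, 52.3 and 48.3 in BAFF tumours 1, 2 and 3 and 33.1, 26.9 and 36.01 scaled CPM in controls (log2 fold change 0.60 ± 0.12; limma adjusted p = 0.00516), and Ero1l was 542, 403 and 365 against 269, 302 and 315 (0.54 ± 0.14; adjusted p = 0.0203). Neither overlapped, and the call of Ero1l ended when BAFF tumour 1 or control tumour 1 was left out. Dnajb11, a BiP cochaperone, rose too (0.40 ± 0.10; adjusted p = 0.0168; ended by leaving out BAFF tumour 2 or control tumour 1, or with CPM over the listed genes, adjusted p = 0.0715). With cyclic loess Ero1l gave 0.31 and Dnajb11 0.24, and neither passed (adjusted p = 0.174 and 0.122). The call lower was Sil1, a nucleotide exchange factor of BiP named outside the rule (-0.55 ± 0.14; adjusted p = 0.0209; not called in 3 of 6 fits that left out 1 library). Of 19 other ERAD genes Ube2j1, a ubiquitin-conjugating enzyme of the ER membrane, rose (89.5 to 92.6 against 54.3 to 67.2 scaled CPM; 0.57 ± 0.10; adjusted p = 0.00277) and 18 did not pass.

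The translocon and oligosaccharyltransferase genes carry and glycosylate proteins entering the ER. In limma 0 of 17 and 0 of 7 passed (2 and 2 higher at an unadjusted p under 0.05). Among all tested genes 7.18% were called higher, with 11.5% at 20 to 100 scaled CPM and 25.3% at 100 or more. At such shares these lists are too short for 0 calls to set them apart. Their medians were 0.15 and 0.06, and the genes with the smallest p were Ssr3 (0.28 ± 0.09; limma adjusted p = 0.0542) and Stt3b (0.22 ± 0.09; adjusted p = 0.131). Among 10 other regulators Creb3l2, an ER-bound transcription factor related to ATF6, fell (-0.50 ± 0.15; adjusted p = 0.036, lost in 4 of 6 fits that left out 1 library and with cyclic loess, adjusted p = 0.071), and 9 did not pass.

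**Figure D5:**
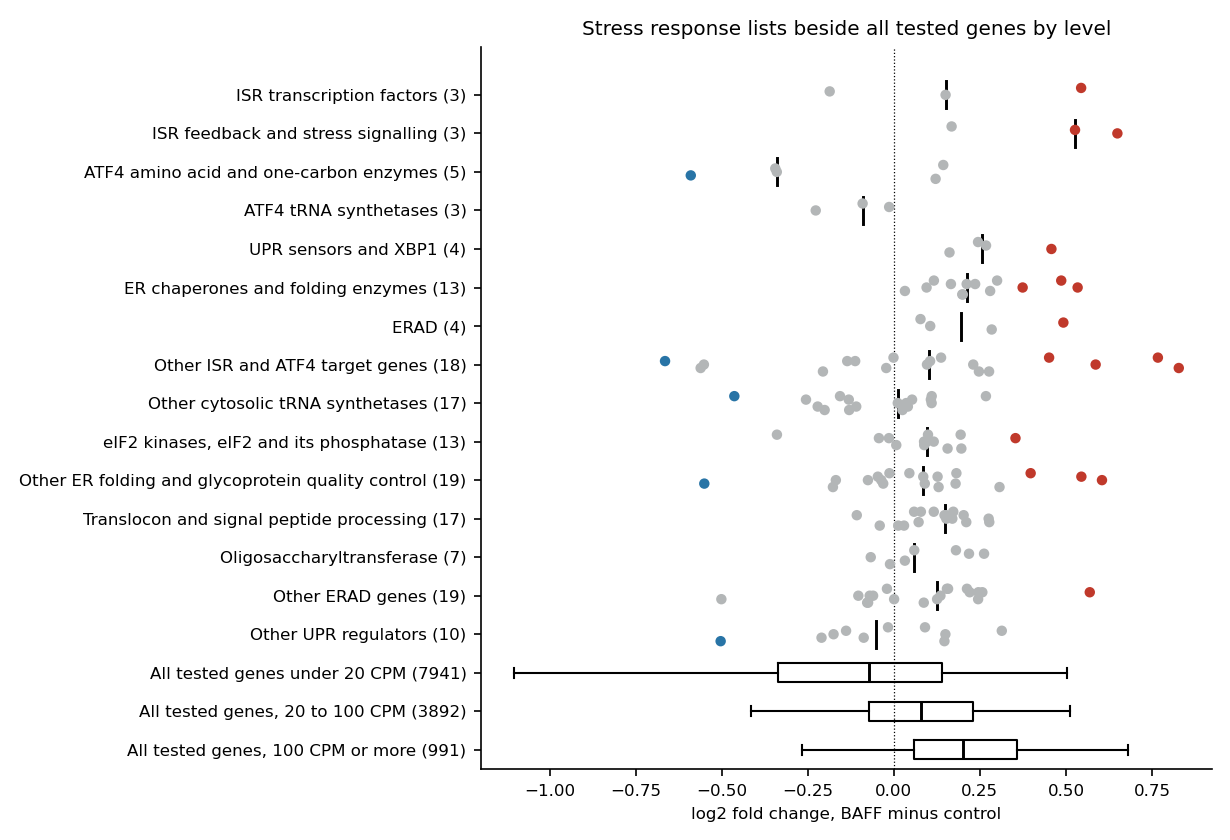
Log2 fold change of every tested gene by list, with genes called higher in red, called lower in blue, others in grey and the list median as a black bar; the 3 boxes below show all tested genes by level, with the median, quartiles and whiskers at the 5th and 95th percentiles. The boxes shift with level, from a median of -0.07 under 20 to 0.20 at 100 scaled CPM or more.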

How the data were processed

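Values for 18341 genes were deposited by the authors as CPM; the unit was read from the values, since low values within a library are mostly whole multiples of 1 step. Between 82.3% and 86.0% of low values lay within 0.02 of a multiple, so reads were not recovered and no count model was used. Partek, STAR 2.4.1d and Bowtie2 2.2.5 are named, without roles, in the submitters' processing notes; for build, annotation and counting rule the sources used here give nothing. Per the labels' protocols the TruSeq v2 kit was used, which does not mark strand: exons of Aars (23.1%), Hsp90b1 (21.6%), Eif2ak3 (10%), Ddit3 (9.1%) and Manf (7.31%) overlap other genes in GENCODE M21, and reads there are uncertain. A column name lacking a letter was matched to control tumour 2.

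CPM was divided by median-of-ratios size factors, because the total behind the CPM held a varying share of unlisted reads; on the deposited scale the median of all genes was shifted by 0.23 (log2). All genes whose deposited CPM averaged at least 1 were tested with limma-trend (limma 3.58.1, R 4.3.3) on log2(scaled CPM + 1), which understates changes of low genes, with Benjamini-Hochberg adjustment over 12824 genes. The method was tested on simulated data. Members and lists were chosen with earlier results of these data known. Sequences are RefSeq's. Genes were named if they were Atf4, Ddit3, Xbp1 or Hspa5, passed the test, or were the up to 3 called genes (or the 1 gene) with the smallest p of each other list; further genes, and the ERSE matches printed for more than Hspa5, were chosen after they were seen. No library was counted as a duplicate (smallest chi-square per degree of freedom between libraries of a group, on approximate reads, 7.47).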

Additional observations from a re-analysis of the deposited data

How the results depend on the processing

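Without rescaling, 232 genes were called higher and 449 lower, 0 members passed in either direction (7 of 35 at an unadjusted p under 0.05), and the medians of the ISR and ER groups were 0.28 and 0.47. With CPM over the listed genes only 489 genes were higher and the ISR median was -0.0060; with no filter or a mean of 5 CPM it was -0.014, and the latter called 669 genes lower. With cyclic loess 4 members were higher and the medians were -0.013 and 8.46e-05. Without control tumours 2 and 3 together 284 genes were higher and 816 lower, with 2 members higher and 0 lower (10 at an unadjusted p under 0.05). Leaving out 1 library gave 516 to 764 genes higher and 833 to 1172 lower, 6 to 8 members higher and 1 lower, an ISR median of -0.017 to 0.098 and an ER median of 0.16 to 0.32.

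With the replicate number as a block 781 genes were higher and 1159 lower, and 8 members higher and 1 lower. The correlations of same-numbered deviations were -0.05, 0.05 and -0.04, and those between unlike numbers ran from -0.05 to 0.09. No pairing by number was seen, but 3 libraries in a group cannot decide whether the samples were paired. Other pseudocounts, upper-quartile factors and robust variances left 7 or 8 members higher and Shmt2 lower. Of the 9 called members and 13 called genes of the other pathway lists 0 changed sign in these settings. Depth limits Chac1 and Phgdh in particular.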
